A study of Mus musculus with 15 samples.

Results

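The regions described here are H3K4me3 peaks that carried no called acetylation and no called H3K27me3 in EL4 cells. Each was an H3K4me3 peak on 1 of the 19 autosomes, taken from the union of both replicates, that shared not 1 bp with any merged peak of H3K9ac, H3K27ac or H3K27me3. There were 1289 such peaks among 17931 autosomal H3K4me3 peaks (7.19%), and they are called unacetylated H3K4me3 peaks below. They were chosen by the peak calls of these 4 marks, so the absence of acetylation and H3K27me3 is not itself a result. The other 16642 H3K4me3 peaks were made up of 15388 that touched both acetylation marks, 876 that touched H3K27ac and no H3K9ac, 256 that touched H3K9ac and no H3K27ac, and 122 that touched H3K27me3 and no acetylation. Peaks in the first 3 of these classes were placed by acetylation alone, whether or not they also touched H3K27me3.

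EL4 is a mouse T lymphocyte lymphoma line from strain C57BL/6N, and all libraries came from these untreated cells, so there was no second cell type or condition. Peaks of 5 histone H3 marks by ChIP-seq and of open chromatin by ATAC-seq were analysed, with 2 replicates each. The study's methods call the replicates technical, so every p-value here measures only the spread between such replicates of 1 line. The deposited lists give the position of each peak and no read count or score, and the depth behind a peak is therefore unknown.

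The trimethyl mark at lysine 4 of histone H3 is placed by the SET1 and MLL complexes, mainly at CpG-rich promoters, where it usually lies beside the acetyl marks that CBP, p300, GCN5 and PCAF write on lysines 27 and 9. Trimethylation of lysine 27 by Polycomb repressive complex 2 marks silent developmental genes and can share a promoter with H3K4me3. Dimethylation of lysine 36 by the NSD enzymes covers broad domains of gene bodies and intergenic DNA, and ATAC-seq peaks mark DNA that a transposase can reach.

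Few unacetylated peaks lay on a listed promoter, and the sequences at those that did ranged from CpG-rich to nearly free of CpG. The promoters below, each from 250 bases before to 50 bases after a RefSeq start on GRCm38.p6 and written on the strand of the gene, show that range, with every CpG in capitals. Pax6, the eye and forebrain transcription factor, is shown for an internal start at chr2:105682213-105682512 on the plus strand, and Gm41168, a long noncoding RNA, for chr14:61056512-61056811 on the plus strand. Adamtsl2, a secreted glycoprotein that binds extracellular matrix, is shown at chr2:27079129-27079428 on the plus strand, and the noncoding Gm39692 at chr1:164960346-164960645 on the minus strand. All 300 bases of these 4 promoters lay inside an unacetylated peak. Cab39l, a scaffold of the LKB1 kinase complex, is shown at chr14:59478701-59479000 on the plus strand because the peak beside it, chr14:59479305-59480533, was the widest in a listed start window of a protein-coding gene, although that peak began downstream of the printed bases.
Pax6: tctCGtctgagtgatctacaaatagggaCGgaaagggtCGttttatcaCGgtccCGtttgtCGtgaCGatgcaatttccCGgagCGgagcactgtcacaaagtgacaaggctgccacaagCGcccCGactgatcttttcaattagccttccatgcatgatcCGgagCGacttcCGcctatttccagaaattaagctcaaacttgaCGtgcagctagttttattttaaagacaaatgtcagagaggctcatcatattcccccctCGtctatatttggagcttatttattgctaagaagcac
Gm41168: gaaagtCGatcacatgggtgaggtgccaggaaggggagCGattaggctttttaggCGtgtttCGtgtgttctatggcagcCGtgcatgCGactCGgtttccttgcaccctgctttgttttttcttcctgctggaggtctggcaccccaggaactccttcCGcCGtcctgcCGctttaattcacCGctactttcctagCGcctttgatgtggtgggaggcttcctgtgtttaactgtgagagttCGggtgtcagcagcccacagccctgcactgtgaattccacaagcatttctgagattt
Adamtsl2: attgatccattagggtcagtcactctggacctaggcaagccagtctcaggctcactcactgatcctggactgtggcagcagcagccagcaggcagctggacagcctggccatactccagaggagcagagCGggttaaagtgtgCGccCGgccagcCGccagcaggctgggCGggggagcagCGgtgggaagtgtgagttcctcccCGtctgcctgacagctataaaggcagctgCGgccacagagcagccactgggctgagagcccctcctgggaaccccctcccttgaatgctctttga
Gm39692: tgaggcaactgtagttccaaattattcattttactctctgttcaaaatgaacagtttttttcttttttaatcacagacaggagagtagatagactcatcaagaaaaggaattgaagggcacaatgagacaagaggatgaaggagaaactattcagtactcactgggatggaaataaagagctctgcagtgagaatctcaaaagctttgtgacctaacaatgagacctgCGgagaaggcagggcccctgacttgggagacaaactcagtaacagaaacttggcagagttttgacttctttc
Cab39l: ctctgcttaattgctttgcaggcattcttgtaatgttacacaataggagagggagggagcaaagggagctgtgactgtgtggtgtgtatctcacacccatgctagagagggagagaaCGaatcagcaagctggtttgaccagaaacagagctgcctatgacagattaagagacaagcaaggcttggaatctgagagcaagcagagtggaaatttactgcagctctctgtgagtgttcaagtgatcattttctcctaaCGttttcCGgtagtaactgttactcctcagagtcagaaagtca

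The Pax6 sequence held 16 CpGs, a ratio of observed to expected CpG of 0.998 given its content of C and G. Gm41168 held 13 (ratio 0.61), Adamtsl2 held 8 (0.275), Cab39l held 3 (0.198) and Gm39692 held 1 (0.0836). CpG richness was thus not common to these promoters.

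The mature microRNA sequence below lay in an unacetylated peak, and it is shown because its gene is a known lymphocyte gene. Mir150 encodes a microRNA of mature lymphocytes, and its 3′ arm, at chr7:45121798-45121819 on the plus strand, is printed with its seed, bases 2 to 8, in capitals.
mmu-miR-150-3p: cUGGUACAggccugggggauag
The surrounding peak, chr7:45121721-45122329, was 609 bp wide, was found in both H3K4me3 replicates, and touched both an ATAC-seq peak found in both replicates and an H3K36me2 peak. Its nearest acetylated peak was 12695 bp away. Another unacetylated peak, chr11:77467250-77467565, overlapped the microRNA gene Mir12181.

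Unacetylated H3K4me3 peaks were narrow. Their median width was 348 bp (quartiles 261 and 505 bp, range 200 to 1405 bp), against 1491 bp (quartiles 800 and 2143 bp) for the other H3K4me3 peaks. The lists of replicate 1 alone gave medians of 340.5 bp and 1466 bp, and those of replicate 2 alone 340 bp and 1460.5 bp. The class nearest in width was H3K4me3 with H3K27ac and no H3K9ac, at a median of 367 bp, whereas peaks with both acetylation marks had a median of 1584 bp. Widths came from the same lists as the rule, so width is given as a description with no test. Together the unacetylated peaks covered 0.528 Mb and the others 26.9 Mb.

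**Figure D1:**
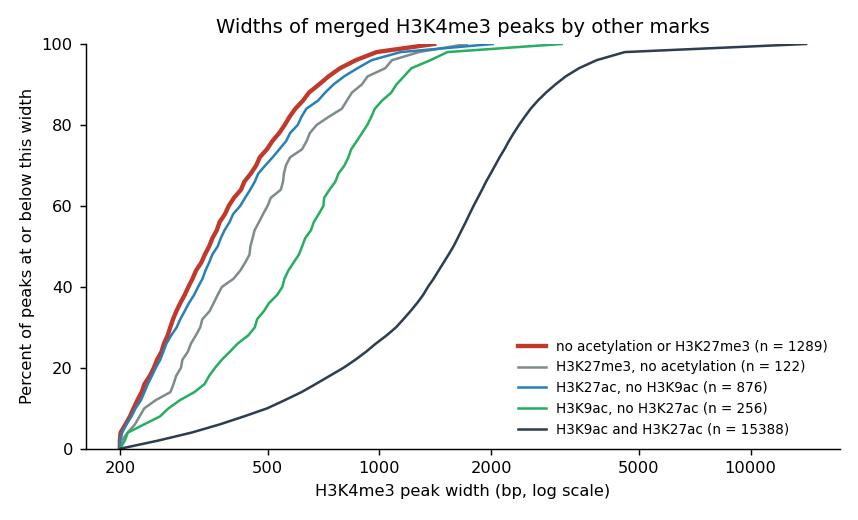
Cumulative percent of peaks (vertical axis) by peak width in bp (horizontal axis, log scale) for the unacetylated H3K4me3 peaks and the other classes of H3K4me3 peak. The unacetylated peaks (median 348 bp) and those with H3K27ac alone (367 bp) lie far to the left of the peaks with both acetylation marks (1584 bp).

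Replicate support was lower as well. Both H3K4me3 replicates held 864 of the unacetylated peaks (67.0%, against 92.4% over all H3K4me3 peaks), while 273 (21.2%) came from replicate 1 only and 152 (11.8%) from replicate 2 only. Of the other peaks 94.4% were in both replicates, and of those with H3K27ac and no H3K9ac 63.9% were. Support followed width in both groups: below 300 bp it was 29.9% for unacetylated and 26.0% for other peaks, and from 500 to under 1000 bp it was 99.0% and 99.1%. Within the lists of replicate 1 alone, 1530 of 17939 H3K4me3 peaks had no acetylation and no H3K27me3, and 256 of these (16.7%) touched an acetylated peak of replicate 2. Within replicate 2 alone there were 1330 of 17530, and 180 (13.5%) touched acetylation of replicate 1.

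The distance to acetylation varied widely, from unacetylated peaks on the flank of an acetylated region to those over 100 kb from any. The median gap to the nearest H3K9ac or H3K27ac peak was 17906 bp (quartiles 983 and 64166 bp). A gap of up to 1 kb was found for 326 (25.3%), of 1 to 10 kb for 219 (17.0%), of 10 to 100 kb for 519 (40.3%), and of over 100 kb for 225 (17.5%). Another H3K4me3 peak lay within 1 kb of 398 unacetylated peaks (30.9%, against 20.4% of the other peaks). That nearest neighbour carried both acetylation marks in 266 of the 398 (66.8%) and was itself unacetylated in 104 (26.1%).

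At the edge of the rule the classes differed by a few bases. The 5 unacetylated peaks closest to acetylation had gaps of 1, 4, 7, 8 and 11 bp, among them peaks in Sulf2, Hibadh and Vav1, the last a guanine nucleotide exchange factor of T cell receptor signalling. The 5 peaks just outside the rule shared 3, 4, 5, 15 and 24 bases with another mark, among them peaks in Ghr, Slc25a3, Kit and Acss2. Of these 10 peaks 7 came from a single replicate.

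Whether unacetylated H3K4me3 coincided with open chromatin was asked with the ATAC-seq peaks, which the rule did not use. An ATAC-seq peak touched 372 of the 1289 unacetylated peaks (28.9%, against 74.7% over all H3K4me3 peaks) and 13023 of the 16642 others (78.3%). With rule and readout applied within each replicate's lists, the shares were 22.1% and 25.2% for unacetylated peaks (23.6% ± 2.19, SD, n = 2) and 72.5% and 76.1% for the others (74.3% ± 2.53, SD, n = 2). The groups did not overlap, and the difference of -50.7 percentage points was many times the spread between replicates. A two-sided exact permutation test of these values gave p = 0.333, the smallest that 2 against 2 allows, so this design cannot pass 0.05. The share was lower for unacetylated peaks on 19 of 19 autosomes.

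The ATAC-seq difference was smaller among peaks of like width and kept its direction in each class. ATAC-seq touched 23.8% of unacetylated and 39.8% of other peaks under 300 bp, 28.3% and 44.6% from 300 to under 500 bp, 35.4% and 57.0% from 500 to under 1000 bp, and 58.3% and 87.4% from 1000 to under 2000 bp, the last resting on 24 unacetylated peaks. With the other peaks weighted to the widths of the unacetylated ones, their ATAC-seq share was 46.5%. The weighting, here and below, used width classes, within which widths could still differ. From 500 to under 1000 bp the median was 626 bp for unacetylated and 734 bp for other peaks. By base pairs, 16.3% of unacetylated and 32.3% of other H3K4me3 sequence was under an ATAC-seq peak.

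Against the class most like them in width, H3K4me3 with H3K27ac and no H3K9ac, unacetylated peaks were also less often open. ATAC-seq touched 45.4% of that class (38.8% ± 4.10 within replicates, SD, n = 2), higher than the unacetylated share in both replicates and on 17 of 19 autosomes (exact permutation p = 0.333, again the smallest possible). Peaks with H3K9ac and no H3K27ac stood at 29.3% (27.1% ± 2.53, SD, n = 2), above the unacetylated share in both replicates (25.3% against 22.1% and 28.9% against 25.2%, exact permutation p = 0.333, the smallest possible). In the merged lists, however, the unacetylated peaks were higher on 12 autosomes and lower on 7. Peaks with H3K27me3 and no acetylation stood at 18.9% (13.5% ± 0.0687, SD, n = 2), below the unacetylated peaks in both replicates and on 14 of 19 autosomes.

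**Figure D2:**
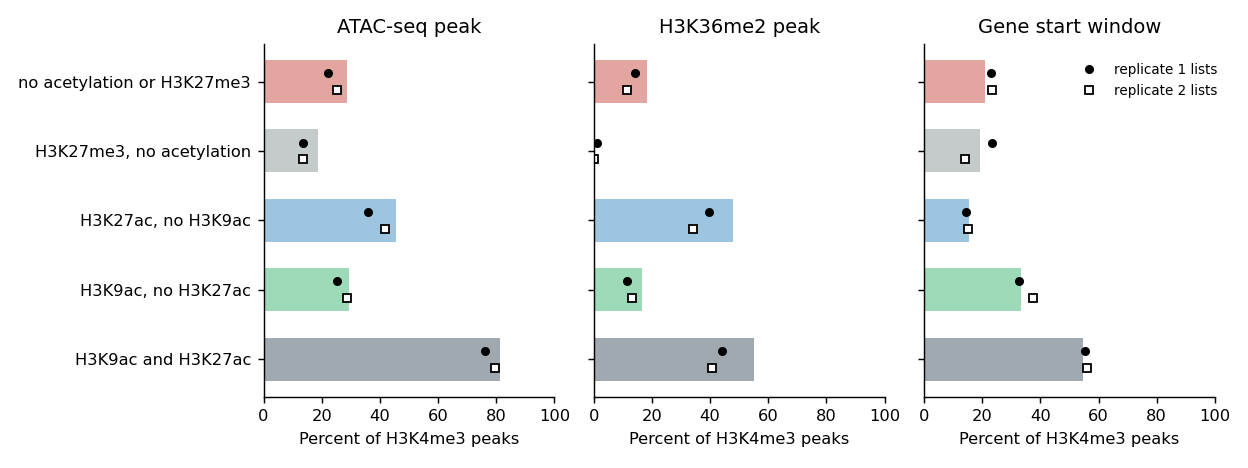
Percent of H3K4me3 peaks (horizontal axis) that touched an ATAC-seq peak, an H3K36me2 peak or a gene start window, for the unacetylated peaks (top bar) and 4 other classes. Bars are merged lists and the circle and square are replicates 1 and 2 alone. Unacetylated peaks stand at 28.9%, 18.2% and 21.1%.

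Where an unacetylated peak did meet open chromatin, the overlap was short in bases but large as a share of the narrow peak. The median overlap was 208 bp, or 53.4% of the peak, against 590 bp and 38.0% for other peaks touched by ATAC-seq. An ATAC-seq peak found in both ATAC-seq replicates touched 242 unacetylated peaks (18.8%) and 69.2% of the others. Among unacetylated peaks the share touched by ATAC-seq was 33.1% for those in both H3K4me3 replicates, 22.0% for those in replicate 1 only and 17.1% for those in replicate 2 only.

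H3K36me2, the second readout outside the rule, was also less frequent. It touched 234 unacetylated peaks (18.2%, against 51.1% over all H3K4me3 peaks) and 53.7% of the others. An H3K36me2 peak found in both replicates touched 177 (13.7%) and 46.6% of the others, and with the intersection of both replicates of every mark the shares were 8.21% and 28.4%. The replicate values were 14.3% and 11.3% for unacetylated peaks (12.8% ± 2.15, SD, n = 2) and 43.0% and 39.7% for the others (41.4% ± 2.38, SD, n = 2). The difference of -28.6 percentage points exceeded the replicate spread (exact permutation p = 0.333, the smallest possible) and had the same direction on 19 of 19 autosomes.

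The H3K36me2 difference did not shrink when widths were matched. Across the 4 width classes under 2000 bp the shares were 23.8%, 16.7%, 12.3% and 4.17% for unacetylated peaks and 60.4%, 52.2%, 46.0% and 49.4% for the others. Weighted to the widths of the unacetylated peaks, the others stood at 53.8%. H3K4me3 with H3K27ac and no H3K9ac touched H3K36me2 in 47.8% (36.8% ± 3.95, SD, n = 2), above the unacetylated peaks on 19 of 19 autosomes. Peaks with H3K9ac and no H3K27ac stood at 16.4% (12.3% ± 1.07, SD, n = 2), within the replicate spread of the unacetylated value (exact permutation p = 1). Of the peaks with H3K27me3 and no acetylation, 0 of 122 touched H3K36me2, which allows a share of up to 2.46% by a limit of 3 counts, and the lists of replicate 1 alone gave 1.23%. Where H3K36me2 was present at an unacetylated peak, it contained the whole peak in 190 of 234 (81.2%). This was 49.0% of the other peaks touched by H3K36me2, which were wider, and 86.3% of them when weighted to the same widths, so the direction turned.

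**Figure D3:**
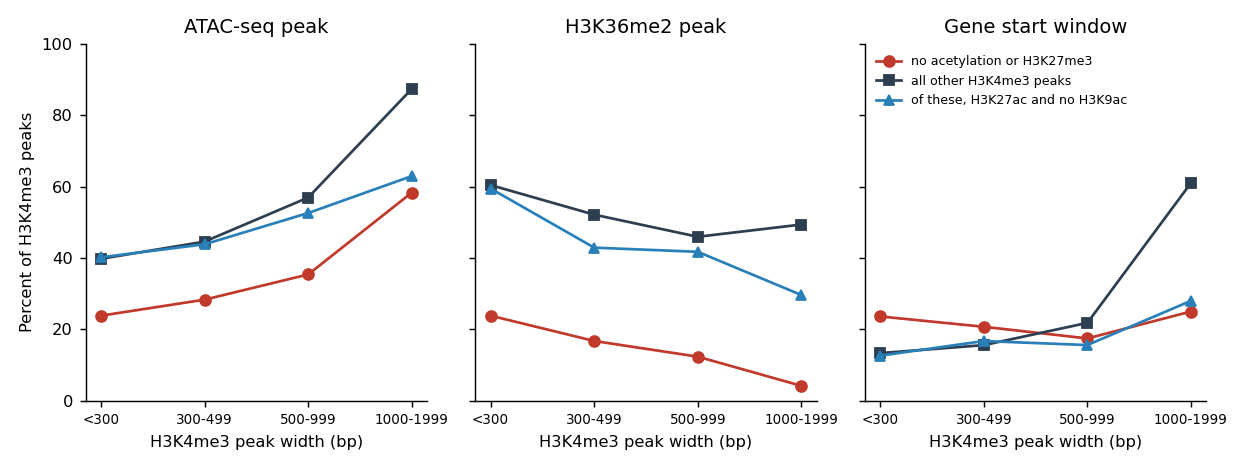
Percent of unacetylated and other H3K4me3 peaks (vertical axes) that touched ATAC-seq, H3K36me2 or a gene start window, by peak width class in bp (horizontal axes), with circles for unacetylated peaks, squares for all others and triangles for those with H3K27ac and no H3K9ac. Unacetylated peaks lie below the others in every class for ATAC-seq and H3K36me2, and above them under 500 bp for gene starts (23.6% against 13.3% under 300 bp).

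Most unacetylated peaks had neither readout. Of the 1289, 739 (57.3%) touched neither ATAC-seq nor H3K36me2, and 491 of those 739 were in both H3K4me3 replicates. The share with neither was 11.1% of the other H3K4me3 peaks, 24.7% of the others weighted to the same widths, and 243 of 876 (27.7%) with H3K27ac and no H3K9ac. ATAC-seq without H3K36me2 was found at 316 unacetylated peaks (24.5%, others 35.2% as found and 21.5% at the same widths). H3K36me2 without ATAC-seq was found at 178 (13.8%, others 10.6% and 28.8%), and both at 56 (4.34%, others 43.1% and 24.98%). The 178 peaks with H3K36me2 alone lay closer to acetylation, at a median gap of 1142 bp, than the 316 with ATAC-seq alone, at 24110.5 bp. The 178 were also narrower (median 293 against 384.5 bp) and less often in both H3K4me3 replicates (48.9% against 78.8%).

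These readouts changed with the distance from acetylation, given here as a description because the rule used that distance. From up to 1 kb, through 1 to 10 kb and 10 to 100 kb, to over 100 kb, the share with H3K36me2 was 32.5%, 26.0%, 12.5% and 2.67%. The share with ATAC-seq was 20.9%, 28.8%, 35.6% and 24.9%, highest at 10 to 100 kb. Support by both replicates moved as well, from 51.2% up to 1 kb to 76.5% at 10 to 100 kb, and its part in the trends was not tested. Among the 697 unacetylated peaks that lay over 1 kb from acetylation and were in both replicates, the median width was 453 bp, 34.9% touched ATAC-seq and 11.8% touched H3K36me2. Other H3K4me3 peaks weighted to the widths of these 697 stood at 49.9% and 51.1%.

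**Figure D4:**
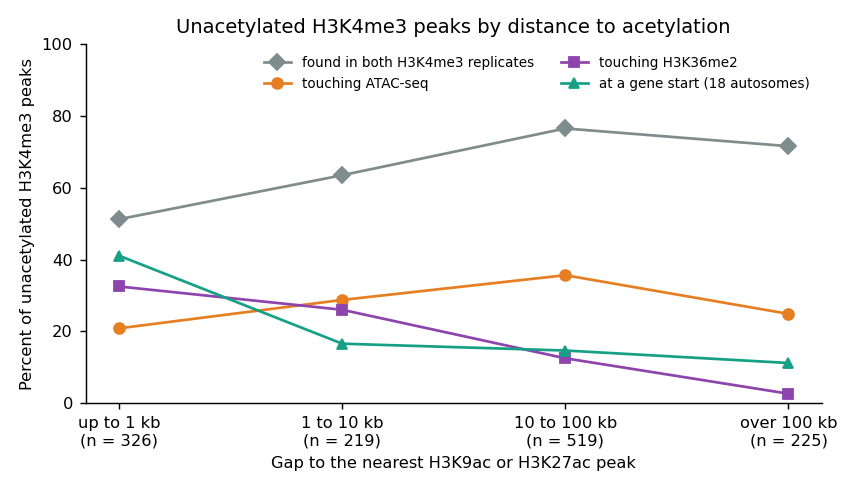
Percent of unacetylated H3K4me3 peaks (vertical axis) found in both H3K4me3 replicates, touching ATAC-seq, touching H3K36me2 or at a gene start window, by the gap to the nearest acetylated peak (horizontal axis, 4 classes from up to 1 kb to over 100 kb, of 326, 219, 519 and 225 peaks). H3K36me2 goes from 32.5% to 2.67% and gene start windows from 41.1% to 11.2%.

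Gene position was read from RefSeq starts on 18 autosomes, with a window from 3 kb upstream to 2 kb downstream. Starts were listed for 16456 of 20554 autosomal protein-coding genes and for none on chromosome 18, so all shares at starts are lower bounds in both groups. A start window held 261 of 1236 unacetylated peaks (21.1%, against 49.7% over all H3K4me3 peaks) and 51.9% of the others. Replicate values were 23.2% in each for unacetylated peaks (23.2% ± 0.0499, SD, n = 2) and 52.5% and 53.2% for the others (52.8% ± 0.473, SD, n = 2). The difference of -29.7 percentage points was larger than the replicate spread (exact permutation p = 0.333, the smallest possible) and was seen on 18 of 18 autosomes.

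This difference followed peak width, and its direction turned when widths were matched. Other H3K4me3 peaks weighted to the widths of the unacetylated ones stood at 17.1%, below the 21.1% of the unacetylated peaks. Under 300 bp the shares were 23.6% for unacetylated and 13.3% for other peaks. From 1000 to under 2000 bp they were 25%, on 24 unacetylated peaks, and 61.0%. In this wide class the median width was 1091 bp for unacetylated and 1520 bp for other peaks. The share also differed by distance to acetylation, over peaks of all widths. Up to 1 kb from acetylation, 129 of 314 unacetylated peaks (41.1%) were in a start window, against 15.5% for other peaks of their widths. Beyond 1 kb it was 132 of 922 (14.3%), against 17.7% for other peaks of the latter's widths. Width classes were not split by distance. Against the 15.3% of H3K4me3 with H3K27ac and no H3K9ac (14.9% ± 0.454, SD, n = 2), unacetylated peaks were higher in both replicates and on 13 of 18 autosomes. Peaks with H3K9ac and no H3K27ac stood higher, at 33.2% (35.0% ± 3.25, SD, n = 2). Unacetylated peaks were below that class in both replicates and on 14 of 18 autosomes. Peaks with H3K27me3 and no acetylation stood at 19.1%, above the unacetylated share in replicate 1 (23.4%) and below it in replicate 2 (14.0%).

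The remainder lay in gene bodies or between genes. Within a gene but outside any listed start window were 571 unacetylated peaks (46.2%, others 33.2%), and 404 (32.7%, others 14.9%) were in neither. These positions were not particular to unacetylated peaks. With H3K27ac and no H3K9ac the shares were 56.0% and 28.7%, and with H3K27me3 and no acetylation 52.2% and 28.7%. They were not weighted by width. Only 75 (6.07%, against 43.4% over all H3K4me3 peaks) touched the 300 bp promoter itself, where 46.3% of the others did. This share also followed width: others weighted to the widths of the unacetylated peaks stood at 6.52%, and 34 of 836 peaks with H3K27ac and no H3K9ac (4.07%) touched a promoter. In start windows the midpoint lay upstream of the start for 107 unacetylated peaks and downstream for 154, against 2027 and 6366 for the others. A protein-coding gene overlapped 51.7% of unacetylated and 74.8% of other peaks, and a long noncoding RNA gene 13.4% and 15.6%.

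An unacetylated peak lay in a start window of 289 genes, 1.12% of the 25748 genes with a listed start. Of these, 167 also had another H3K4me3 peak in a start window, and for 122 (69 protein-coding and 53 long noncoding) the unacetylated peak was the only one. The promoter peaks described next were picked after their values were seen and stand for no gene class. Clec12a, an inhibitory C-type lectin receptor of myeloid cells, had a 915 bp peak at chr6:129349464-129350378 with ATAC-seq and H3K36me2. Cxcl10, an interferon-induced chemokine, had a 550 bp peak at chr5:92348687-92349236 with ATAC-seq, 3914 bp from acetylation. Irak3, an inhibitor of Toll-like receptor signalling, had a 624 bp peak at chr10:120201700-120202323 with ATAC-seq. The ATAC-seq peak at Irak3 was not found in both ATAC-seq replicates, unlike those at Clec12a and Cxcl10.

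Other promoters carried an unacetylated peak and no ATAC-seq. Tnfrsf1b, a receptor for tumour necrosis factor, had a peak of 595 bp at chr4:145246356-145246950, and Themis2, a signalling adaptor of B cells and macrophages, one of 528 bp, 26529 bp from acetylation. Inpp4a, a phosphoinositide phosphatase, had a peak of 645 bp at chr1:37299640-37300284 that lay 128714 bp from acetylation, and Tdrd5, a piRNA pathway protein of male germ cells, one of 534 bp at 103737 bp. These 4 peaks were found in both H3K4me3 replicates and touched no H3K36me2.

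Promoters under unacetylated peaks had intermediate CpG content. Peak widths were not matched here and narrow acetylated peaks were not read separately, so the part of width was not tested. The 81 promoters (of 73 genes) touched by unacetylated and by no other H3K4me3 peaks had a median CpG ratio of 0.54 (quartiles 0.32 and 0.70) and a median GC content of 57.0%. The 10245 promoters touched only by other H3K4me3 peaks had 0.80 and 62%, and the 21061 with no H3K4me3 peak 0.25 and 49.3%. A ratio of at least 0.6 was reached by 43.2%, 77.9% and 16.1% of these, and by 36.4% of all 31396 promoters. The motif GGGCGG, the GC box of Sp and KLF factors, was present on either strand in 50.6% of the 81, 66.6% of the 10245 and 35.98% of all promoters. CCAAT was found in 25.9%, 37.7% and 37.3%, TATAAA in 3.70%, 6.10% and 13.6%, and the E-box CACGTG in 8.64%, 10.6% and 7.14% of the same groups. A match describes the letters of a window only, and 1 window can hold several motifs.

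**Figure D5:**
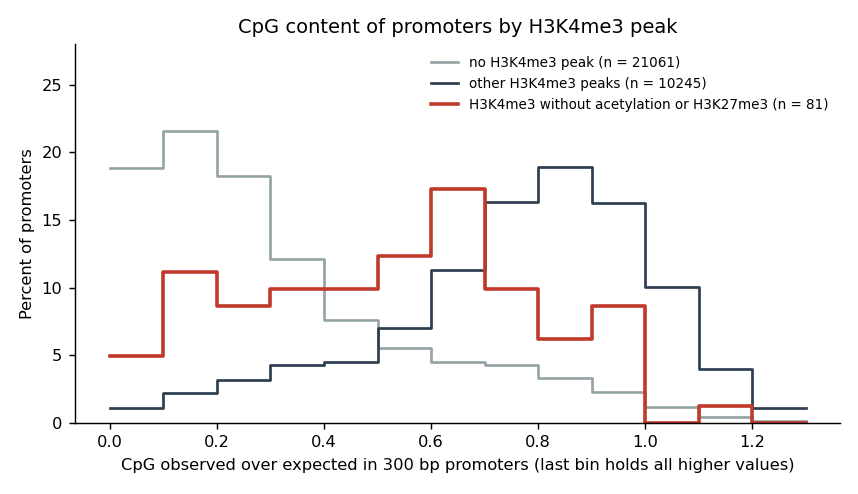
Percent of promoters (vertical axis) by ratio of observed to expected CpG in 300 bp (horizontal axis) for promoters under unacetylated H3K4me3 peaks (n = 81), under other H3K4me3 peaks (n = 10245) and under no H3K4me3 peak (n = 21061). The medians are 0.54, 0.80 and 0.25.

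The widest unacetylated peaks mostly touched a gene, as did 62.9% of all unacetylated and 82.8% of other H3K4me3 peaks. Gaps to acetylation of the 10 widest ran from 674 bp at Dipk2a to 99399 bp at Wdr70. The median over all unacetylated peaks was 17906 bp. Of the 10 widest found in both H3K4me3 replicates, the first, of 1405 bp at chr13:21882020-21883424, held the tRNA genes n-TIaat10 and n-TFgaa1 for isoleucine and phenylalanine and touched no ATAC-seq peak. The next, of 1357 bp at chr3:135376635-135377991, lay in Slc9b1, a sodium and proton exchanger, 24642 bp from acetylation, and touched an ATAC-seq peak found in both replicates. A 1348 bp peak at chr19:58978732-58980079 lay in Shtn1, a protein of axon outgrowth, with no ATAC-seq and a gap of 67353 bp. The 1305 bp peak at chr4:149854166-149855470 lay between genes, 40812 bp from Spsb1, and touched ATAC-seq in both replicates.

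The other 6 of these 10 were in Gm34739 (1342 bp), Cab39l (1229 bp), Dipk2a (1207 bp), Wdr70 (1195 bp), the vesicle GTPase Rab37 (1161 bp) and Gm41168 (1143 bp). Dipk2a and Rab37 lay closest to acetylation, at 674 and 1393 bp. None of the 10 touched H3K36me2. At Cab39l a second unacetylated peak of 456 bp at chr14:59478763-59479218, 86 bp upstream of the wide one, covered most of the printed promoter.

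The 10 widest unacetylated peaks with an ATAC-seq peak found in both replicates again began with Slc9b1 and the peak near Spsb1. They continued with Gm34917 (1076 bp), Gm39692, whose window also held the start of 1700029M03Rik (1044 bp), a peak 9554 bp from Gm36090 (1041 bp), Gm32235 (1019 bp), Extl3, an enzyme of heparan sulfate synthesis (1002 bp), the Wnt receptor Ryk (952 bp), the Rap exchange factor Rapgef5 (942 bp) and 2700089I24Rik (929 bp). The gaps of these 10 to acetylation ran from 10643 bp at Gm32235 to 195247 bp at 2700089I24Rik, and none touched H3K36me2. The peak at Gm39692, whose printed promoter held 1 CpG, lay 164780 bp from acetylation.

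Transfer RNA genes were the small RNA class with most peaks among unacetylated and other H3K4me3 peaks alike. Within 500 bp of a tRNA gene lay 14 unacetylated peaks (1.09%, others 0.757%), 10 in both H3K4me3 replicates and 10 on chromosome 13. Of these 14, 1 touched ATAC-seq (7.14%) and 0 touched H3K36me2, whereas 94 of the 126 other H3K4me3 peaks near tRNA genes touched ATAC-seq (74.6%). The 14 were narrower, at a median of 371 bp against 2030 bp. Within 500 bp of microRNA genes and of small nucleolar RNA genes lay 4 unacetylated peaks each (0.31%, others 0.70% and 0.43%), and near small nuclear RNA genes 0 (others 0.33%). The bodies of replication-dependent histone genes overlapped 0 unacetylated and 43 other peaks (0% and 0.258%). Of 62 such genes with a listed start, 6 had an unacetylated peak in a start window, against 1.12% of all genes with a start. For 2 of them (H2ac15 and H4c8) no other H3K4me3 peak lay there, and 43 of the 62 had another H3K4me3 peak. Start windows of neighbouring genes can share 1 peak, so these are counts of genes and not of peaks. The bodies of zinc finger genes with a Zfp symbol overlapped 7 unacetylated and 318 other peaks (0.543% and 1.91%), and V, D or J segments 2 and 22 (0.155% and 0.132%). The 2 segment peaks, at Trav13n-3 and Trav4-3, were V segments of the T cell receptor alpha locus.

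Of 6 gene lists, 3 held 1 gene each with an unacetylated peak and 3 held 0, counts too small to set against the share over all genes. Start windows were read, or windows at both gene ends where no start was listed. Of 18 T lineage genes, 13 had other H3K4me3 peaks alone, 4 (Cd8a, Rag1, Rag2 and Il2rb) had none, and Bcl11b, a transcription factor of T cell commitment, had an unacetylated peak of 312 bp at chr12:108004748-108005059 beside another H3K4me3 peak, 543 bp from acetylation. The 18 autosomal genes of other blood lineages, 20 germline genes and 12 housekeeping genes had 0 unacetylated peaks, and 2, 1 and 11 of them had another H3K4me3 peak. Of 14 neuronal genes, 2 had other H3K4me3 peaks alone and Pax6 had the unacetylated peak chr2:105681997-105683057, 1061 bp wide, in both replicates, without ATAC-seq or H3K36me2 and 220792 bp from acetylation. Of 12 Polycomb target genes, 2 had other peaks alone and Hoxb13 had unacetylated peaks of 229 and 226 bp near its ends, beside 2 other H3K4me3 peaks. Both unacetylated peaks were in replicate 1 only, touched H3K36me2 and lay 251 and 250 bp from acetylation.

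The label of the cells was checked against markers. The T lineage genes Cd3e, Cd3d, Cd3g, Lck, Tcf7 and Thy1 each had 1 to 3 H3K4me3 peaks with H3K9ac, H3K27ac and ATAC-seq peaks and no H3K27me3. The B lineage gene Pax5 had no peak of any kind, the myeloid gene Csf1r had no H3K4me3 and 1 peak each of H3K27me3 and H3K36me2, and Lyz2 had 1 H3K27ac peak. By autosome, the unacetylated share of H3K4me3 peaks ran from 5.23% on chromosome 8 to 10.9% on chromosome 14.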

How the data were processed

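Per the labels and the methods, the authors aligned reads of ChIP-seq and ATAC-seq with STAR 2.5 to GRCm38, treated duplicates with Picard, called H3K4me3, H3K9ac, H3K27ac and ATAC-seq peaks with MACS2 and the broad marks H3K27me3 and H3K36me2 with Epic, setting ChIP reads against input DNA. The 12 deposited lists, 1 per replicate, hold the chromosome, start and end of each interval and no count, score or signal. Intervals without heights cannot tell weak from missing marks, and broad marks come in bins of 200 bp.

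Autosomal intervals of both replicates that overlapped or adjoined were merged, and peaks sharing at least 1 bp counted as touching. Replicate values came from the lists of 1 replicate alone and were compared by two-sided exact permutation tests. ATAC-seq and H3K36me2 shares, and positions against 31396 RefSeq starts of 25748 genes (GRCm38.p6), were the readouts tested. Named regions were the 10 widest in both replicates, the 10 widest with ATAC-seq in both replicates, the 5 on either side of the rule's edge and genes of fixed lists; the promoters printed other than Cab39l were chosen after their values were seen. The members and lists were chosen with earlier results of these data known.

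Python 3.11.15, numpy 2.4.6, pandas 2.3.3, scipy 1.17.1 and matplotlib 3.10.9 were used. In simulated data 200 of 200 planted intervals were recovered, and 10 comparisons with bedtools 2.31.1 gave 0 differences. Alternatives covered single replicates, intersection, overlap, distance, width, merging and windows. No use was made of input or RNA-seq libraries, and chromosome 18 starts were not analysed here. A further lineage marker is not reported here.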

Additional observations from a re-analysis of the deposited data

How the results depend on the processing

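The lower shares of unacetylated peaks with ATAC-seq and with H3K36me2 kept their direction under all 15 alternatives each, with differences from -52.3 to -16.0 and from -41.6 to -18.1 percentage points. The share at a gene start kept its direction under 15 alternatives and turned under 1, chosen after seeing the data: with other peaks weighted to the widths of the unacetylated ones, 21.1% stood against 17.1%, a difference of 4.01 points. The same weighting, also added after seeing the data, turned the share wholly inside H3K36me2 (81.2% against 86.3%, a difference of -5.12 points, 32.2 points without it), brought the promoter share to 6.07% against 6.52%, and left the share with neither readout higher (57.3% against 24.7%). With the replicate numbers as a block (the values paired by number, sign-flip exact permutation), the means were 23.6% for ATAC-seq, 12.8% for H3K36me2 and 23.2% for starts, each with p = 0.5, the smallest that 2 pairs allow, and no call changed. In the lists of a single replicate the number of members ran from 1330 to 1530, the median width from 340 to 340.5 bp, and the shares from 22.1 to 25.2% for ATAC-seq, 11.3 to 14.3% for H3K36me2 and 23.15 to 23.22% for starts.

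The number of members fell to 332 with H3K4me3 peaks of at least 500 bp, and was 864 to 1632 otherwise. The share in both replicates was 99.1% with that minimum and 73.9% with intervals within 1000 bp merged. The median width was 319 bp for the intersection of replicates, 338 bp and 349 bp where the rule needed an overlap of 200 bp or of 50%, 370.5 bp at least 1000 bp from the other marks, 433 bp in both replicates, 637 bp with the 500 bp minimum, 391 bp after merging and 354 bp where H3K27me3 was allowed. These moves follow from which peaks each setting keeps. Without depth or peak heights, a mark below its caller's threshold cannot be told from an absent one.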
